A study of Mus musculus with 51 samples.

Results

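Genes for amino acid transporters and their close relatives were followed from the mouse oocyte to the blastocyst, in fertilised embryos (in vitro fertilisation, IVF) and in clones. The set took every gene of the Slc1, Slc3, Slc6, Slc7, Slc36, Slc38 and Slc43 families by its symbol, except 1 further Slc38 gene that was left out by rule. Of 18193 genes measured, 62 were members, and 59 of these coded for a carrier or one of its subunits. The other 3 (Slc7a6os, Slc36a1os and Slc6a19os) were opposite strand genes caught by the same name pattern, which carry no transporter. By role the set held 7 glutamate and neutral amino acid carriers (Slc1), 2 heavy chains (Slc3), 10 amino acid carriers of the Slc6 family, 9 Slc6 genes grouped as GABA, monoamine, taurine, betaine and creatine carriers (Slc6a16, of uncertain substrate, counted with them), 10 light chains (Slc7), 5 cationic carriers and relatives (Slc7), 4 proton-coupled carriers (Slc36), 8 sodium-coupled neutral carriers (Slc38) and 3 facilitators (Slc43), while Slc6a21 was placed in no role. A gene was read by 1 probe set, the one that varied most over all 51 arrays, and 31 of the 62 genes had others.

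The 51 arrays were of 3 metaphase II (MII) oocytes, and of 3 IVF and 5 cloned embryos at each of the 1-cell, 2-cell, 4-cell, 8-cell, morula and blastocyst stages. Embryos were collected 16, 32, 48, 62, 72 and 84 h after sperm was added or the reconstructed egg was activated. Oocytes and IVF embryos were B6D2F1, whereas a clone had the nucleus of a B6CBF1 Sertoli cell, which nurses germ cells in the testis, in a B6D2F1 oocyte, so that origin of the nucleus, nuclear transfer and donor strain changed together and cannot be told apart. Donor cells were male and IVF embryos can be of either sex, so the sex of embryos could also differ between the groups. Its part in the results, X-linked genes included, was not tested. All embryos were cultured in KSOM medium, and RNA of single embryos was amplified over 2 cycles before hybridisation to Affymetrix expression arrays. The 3 and 5 arrays a group were labelled as biological replicates.

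Amino acids cross membranes on carriers that differ in their substrates and in what drives them. Sodium-coupled carriers of the Slc1, Slc6 and Slc38 families build up amino acids in the cell, and the Slc7 light chains mostly exchange one amino acid for another once they are joined to a heavy chain, SLC3A2 or SLC3A1, that takes them to the surface. In the mouse oocyte and early embryo, glycine taken up by GLYT1, the product of Slc6a9, serves as an organic osmolyte, and proline, taurine and betaine carriers also control cell volume. Later, leucine and arginine uptake bears on mTORC1 signalling and on the outgrowth of the trophectoderm, the outer layer of the blastocyst.

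Values below are log2 values that had been centred for each probe set, so they give differences between embryos for 1 gene and no absolute level; levels of different genes are not compared. A difference is given with its standard error (SE), a group mean with its standard deviation (SD). A gene was called where its adjusted p, from limma with Benjamini-Hochberg adjustment over all 18193 genes, was under 0.05. An embryo is assayed whole, so fewer cells with a transcript and less transcript per cell cannot be told apart.

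Some libraries stood apart. Hybridisation controls, which are added after amplification, averaged 0.53 to 0.79 in 1-cell IVF embryos, -1.02 to -0.71 in 1-cell clones 1 to 3 and 0.35 and 0.50 in clones 4 and 5. They were lower in IVF embryos than in clones without overlap at the 2-cell (-0.73 to -0.23 against 0.57 to 1.22), 4-cell (-0.51 to -0.13 against 0.69 to 1.19) and 8-cell stages (-0.44 to -0.24 against -0.03 to 0.96). Successive stages could also lie apart without overlap. Oocytes, at -0.80 to -0.47, lay below 1-cell IVF embryos, which lay above 2-cell ones. IVF morulae, at -0.04 to 0.23, lay above 8-cell IVF embryos and above IVF blastocysts (-1.25 to -0.70). In clones the 1-cell embryos lay below the 2-cell ones, and morulae (-0.10 to 0.98) above blastocysts (-1.25 to -1.07). Control level thus changed together with stage at these steps. The donor cells were male, yet the Y-linked Eif2s3y read -5.25 in 1 of the 5 8-cell clones (replicate 4), near the oocytes (-5.42 to -5.37), while the median of that group was 0.00. Some IVF embryos of every stage, which can be of either sex, and all 1-cell clones read as low. The part of these differences in the results was not tested beyond the values given beside each.

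Transporter expression changed over development in a part of the set. The SD over the 51 arrays exceeded 1 for 28 members, was under 0.3 for 24, and ran from 0.021 for Slc43a1 to 3.81 for Slc6a8; its median was 0.629, against 1.01 for all genes. In the oocyte and IVF series, 5 of the 28 varying members had their highest mean in the oocyte, 6 in the 1-cell, 4 in the 2-cell, none in the 4-cell, 2 in the 8-cell, 1 in the morula and 10 in the blastocyst group. Of the 9159 genes of all kinds with an SD over 1, 27.1% were highest in the oocyte, 16.4% at 1-cell, 9.94% at 2-cell, 5.51% at 4-cell, 9.95% at 8-cell, 7.42% at morula and 23.6% in the blastocyst. The clone series put the highest mean at the same stage for 26 of the 28. Both series share the 3 oocytes, and the 28 were chosen by SD over all 51 arrays. The agreement is thus partly built in, and it was not counted for all genes. The exceptions were Slc1a1 and the taurine carrier gene Slc6a6. Slc1a1 was highest at 8-cell in IVF embryos and at morula in clones, whose 8-cell and morula means were 0.64 and 0.65. Slc6a6 was highest at 8-cell in IVF embryos and at 4-cell in clones. Among embryos, some other probe sets of Slc6a6 were highest at 8-cell in both series (0.87 and 2.16 in IVF embryos, 1.57 and 1.57 in clones). These stages hold for the probe sets followed. Slc7a11, Slc7a1, Slc38a9 and Slc7a2 were highest at 1-cell on these. On another probe set their means were 6.44, 3.93, 4.26 and 4.10 in oocytes and 2.18, 1.80, 0.04 and -0.11 in 1-cell IVF embryos. Some further probe sets of Slc38a9 (1.97 and 1.49) and Slc7a2 (6.66 and 3.78) were highest at 1-cell in the oocyte and IVF series.

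**Figure D1:**
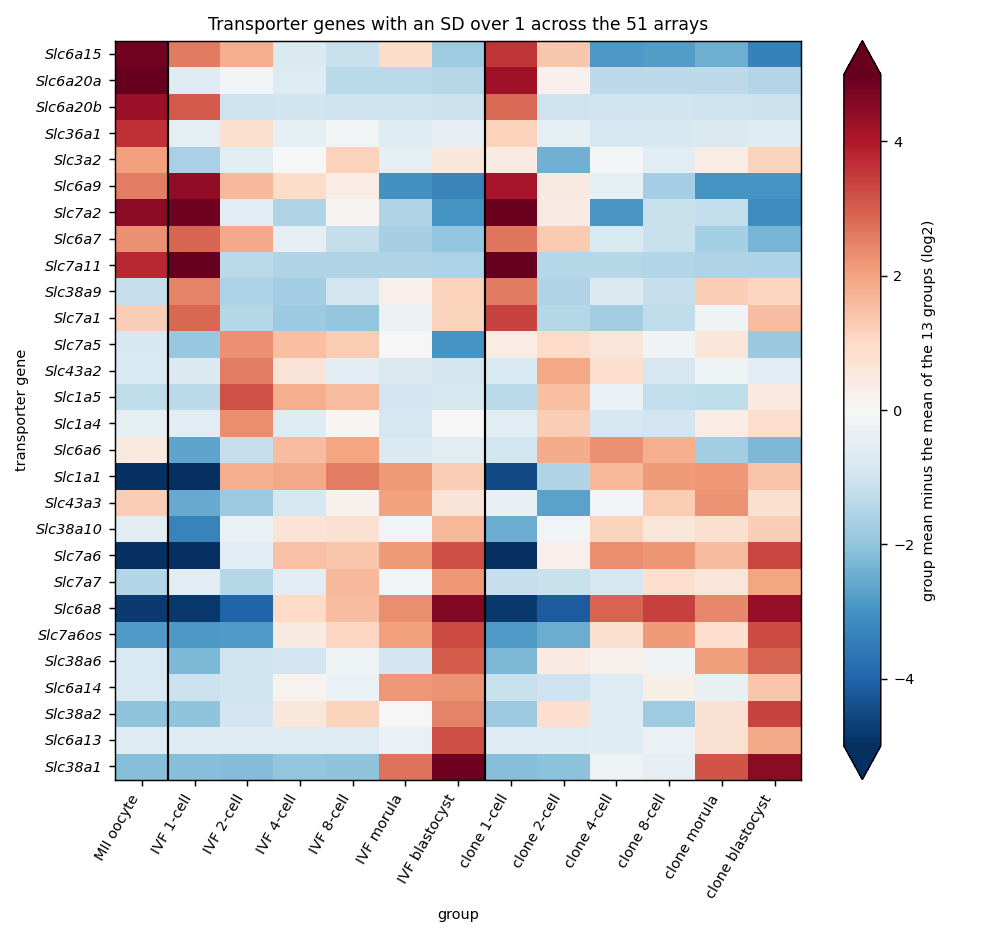
Group means of the 28 varying transporter genes (rows, ordered by the stage of the highest IVF or oocyte mean) in the 13 groups (columns), each shown as its distance on the log2 scale from the gene's mean over groups, with colours saturating at 5. Genes at the top are high in the oocyte or 1-cell embryo and genes at the bottom in the blastocyst, as Slc38a1, which reached a mean of 6.55 in IVF and 6.19 in cloned blastocysts.

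Transcripts held by the egg came from several roles. The cystine and glutamate exchanger gene Slc7a11 read 5.21, 4.72 and 5.93 in the 3 oocytes, 7.19, 7.58 and 6.59 in the 1-cell IVF embryos and 0.12, 0.16 and 0.19 in the 2-cell IVF embryos. It stayed between -0.10 and 0.01 in every later IVF embryo. The loss between 1-cell and 2-cell was -6.97 ± 0.24 in IVF embryos (adjusted p = 3.73e-12) and -6.85 ± 0.10 in clones (adjusted p = 1.71e-26), and no 2-cell value reached any 1-cell value. Slc7a2, a cationic amino acid carrier gene, was at 5.81, 5.85 and 6.08 in 1-cell and at 1.72, -0.06 and -0.09 in 2-cell IVF embryos, where it fell by 5.39 ± 0.71 (adjusted p = 1.4e-05). Another of its probe sets had means of 4.10 in oocytes, -0.11 in 1-cell and -0.29 in 2-cell IVF embryos. Further ones went from 6.66 to 0.58 and from 3.78 to 0.05 between 1-cell and 2-cell.

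Slc7a11 is a known target of ATF4, the factor that the amino acid response pathway induces, through a composite site for C/EBP and ATF factors. The letters TGATGNAA were searched on either strand in the RefSeq (GRCm38.p6) windows of 300 bases, from 250 before to 50 after an annotated start. They occurred in 1304 of all 32851 windows (3.97%) and in 5 of the 64 windows of members (7.81%), which covered 45 of the 62 genes; 4 of those genes held them (Slc1a4, Slc6a21, Slc7a7 and Slc7a11), as did 1219 of all 27025 genes (4.51%). The windows of Slc7a11 and of Slc1a4, a neutral amino acid carrier gene that differed between clones and IVF embryos at the 8-cell stage, are shown 5′ to 3′ on the minus strand with the matches in capitals: Slc7a11 lies at chr3:50443564-50443863 with 2 matches, whose leftmost bases are at -66 and -47 from the start, and Slc1a4 at chr11:20332664-20332963 with 1 match at -4.
Slc7a11: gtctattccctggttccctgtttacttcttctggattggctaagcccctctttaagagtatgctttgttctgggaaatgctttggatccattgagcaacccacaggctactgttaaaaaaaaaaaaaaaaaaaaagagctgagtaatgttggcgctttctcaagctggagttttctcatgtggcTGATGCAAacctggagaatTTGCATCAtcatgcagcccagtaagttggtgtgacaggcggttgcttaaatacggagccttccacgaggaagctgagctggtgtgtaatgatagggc
Slc1a4: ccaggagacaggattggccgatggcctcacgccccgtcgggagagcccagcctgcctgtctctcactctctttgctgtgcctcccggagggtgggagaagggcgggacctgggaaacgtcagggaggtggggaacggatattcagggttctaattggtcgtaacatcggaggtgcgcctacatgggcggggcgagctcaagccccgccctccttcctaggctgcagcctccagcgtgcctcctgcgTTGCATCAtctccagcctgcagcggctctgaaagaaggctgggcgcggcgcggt
A match describes letters in this window and shows no binding. The genes that held it had unlike courses on the probe sets followed. Slc7a11 was highest in the 1-cell embryo and Slc1a4 in the 2-cell embryo. Slc7a7, the light chain of a cationic and neutral amino acid exchanger, was highest in the blastocyst, while Slc6a21 varied little.

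Slc6a20a, a proline carrier gene, was at 7.67, 7.88 and 7.69 in oocytes and at 0.52, 1.36 and 0.10 in 1-cell IVF embryos, and so fell by 7.08 ± 0.51 (adjusted p = 2.93e-08). Its neighbour and near copy on chromosome 9, Slc6a20b, was at 5.71, 5.62 and 4.69 in oocytes, at 4.10, 3.86 and 4.30 in 1-cell and between -0.01 and 0.00 in 2-cell IVF embryos. Near copies can share signal on an array, so the values of the 2 genes are uncertain as a pair. Slc6a9 rose from 3.26, 3.17 and 2.97 in oocytes to 4.96, 5.09 and 4.97 in 1-cell IVF embryos (1.88 ± 0.47, adjusted p = 0.00542). It then fell by 2.82 ± 0.47 between 1-cell and 2-cell (adjusted p = 0.000138), and fell by 3.40 ± 0.47 between 8-cell and morula (adjusted p = 9.93e-05). In oocytes the neutral amino acid carrier gene Slc6a15 read 5.41 to 5.60, and in IVF blastocysts -1.88 to 0.00. Slc36a1, a proton-coupled lysosomal and surface carrier gene, read 3.96, 4.06 and 4.41 in oocytes and -0.02 to 0.01 in 1-cell IVF embryos, and fell by 4.15 ± 0.46 (adjusted p = 3.26e-06).

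Between oocyte and 1-cell IVF embryo, 4 members rose and 11 fell, that is 6.45% and 17.7% of the set, beside 14.3% and 16.3% of all genes. With quantile normalization 1 member rose and 7 fell, with 2333 genes of all kinds called instead of 5565. Besides the genes above, the heavy chain gene Slc3a2 fell by 3.69 ± 0.34 (adjusted p = 5.06e-07), the facilitator gene Slc43a3 fell by 3.74 ± 0.49 (adjusted p = 1.7e-05) and Slc6a6 fell by 3.14 ± 0.70 (adjusted p = 0.00231). The rises were those of Slc6a9, Slc7a11 (1.84 ± 0.24), Slc38a9 (3.65 ± 0.70), an amino acid sensor and carrier of the lysosome, and the arginine carrier gene Slc7a1 (1.61 ± 0.40). For 3 of the rises another probe set of the same gene fell past the threshold, for Slc7a11 (-4.26, adjusted p = 1.75e-14), Slc38a9 (-4.21, adjusted p = 3.74e-07) and Slc7a1 (-2.13, adjusted p = 2.25e-05). The direction for these 3 genes at fertilisation therefore depends on the probe set. Both probe sets of Slc7a11 had lower means at 2-cell than at 1-cell, as the one followed went from 7.12 to 0.16 and the other from 2.18 to -0.04 in IVF embryos.

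**Figure D2:**
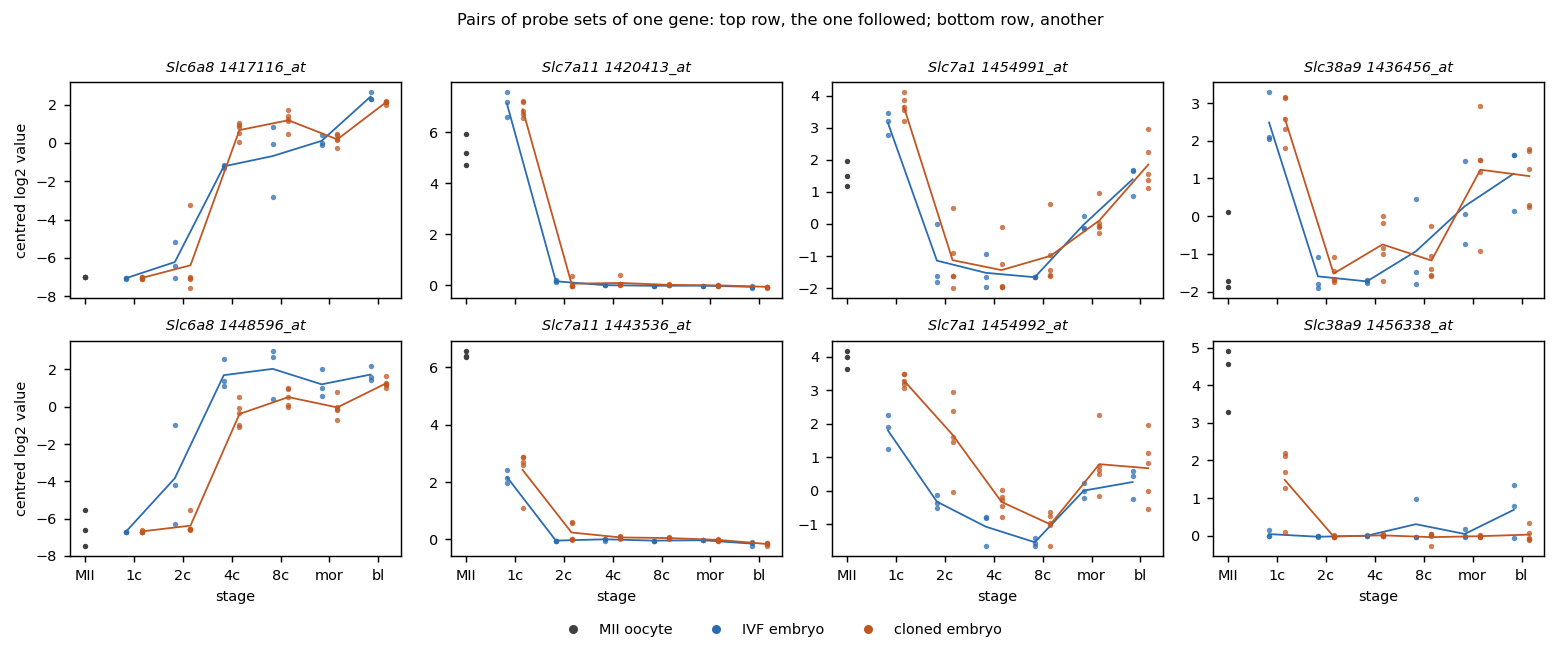
Values by embryo (points) and group means (lines) on the centred log2 scale over the stages (MII, oocyte; 1c to 8c, cell number; mor, morula; bl, blastocyst) for 4 genes, with the probe set followed above and another of the same gene below. From oocyte to 1-cell IVF embryo the upper probe set of Slc7a11 rose by 1.84 while the lower one changed by -4.26, and at the 4-cell stage clones lay above IVF embryos on 1 probe set of Slc6a8 and below them on the other.

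The 2-cell stage brought 10 rises and 7 falls among members of IVF embryos (17.2% and 18.7% of all genes). The glutamate carrier gene Slc1a1 read -4.45, -8.09 and -8.07 in 1-cell and -0.54, 0.25 and 1.29 in 2-cell IVF embryos, a rise of 7.21 ± 0.78 (adjusted p = 1.55e-06). Slc7a6, a light chain gene for cationic and neutral exchange, rose by 4.87 ± 0.53 (adjusted p = 1.67e-06). The glutamine carrier gene Slc1a5 went from -0.40, -0.40 and -0.46 to 3.33, 3.86 and 4.99, and the large neutral amino acid exchanger gene Slc7a5 from -1.89, -1.96 and -2.35 to 2.24, 1.79 and 2.25. Slc43a2, a facilitator of large neutral amino acids, rose by 3.27 ± 0.29 (adjusted p = 1.82e-07). No value of these genes in a 2-cell IVF embryo overlapped the 1-cell values. Slc43a2 and Slc1a4 were transient: from 2-cell to 4-cell Slc43a2 fell by 1.95 ± 0.29 (adjusted p = 0.000151) and Slc1a4 fell by 2.95 ± 0.52 (adjusted p = 0.000609). Slc7a1 fell by 4.28 ± 0.40 (adjusted p = 3.46e-07), Slc6a20b fell by 4.10 ± 0.18 and Slc38a9 fell by 4.08 ± 0.70 between 1-cell and 2-cell.

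From 2-cell to 4-cell, 4 members rose and 5 fell in IVF embryos (10.5% and 13.3% of all genes). The creatine carrier gene Slc6a8, which lies on the X chromosome, read -6.44, -7.03 and -5.18 in 2-cell and -1.13, -1.21 and -1.33 in 4-cell IVF embryos (5.00 ± 0.65, adjusted p = 4.35e-05). Slc6a6 rose by 2.70 ± 0.70 (adjusted p = 0.00993), a call lost without 2-cell IVF replicate 2 (1.87, adjusted p = 0.0526). Slc7a6 rose further by 2.03 ± 0.53 (adjusted p = 0.0103), and the call was lost without 2-cell IVF replicate 2 (1.44, adjusted p = 0.0562) or 4-cell IVF replicate 3 (1.69, adjusted p = 0.0511). Slc7a6os, the opposite strand gene beside Slc7a6, rose by 3.28 ± 0.20 (adjusted p = 4.21e-08), but its other probe set fell by 0.775 (adjusted p = 0.0252). Slc6a7, a proline carrier gene, fell by 2.33 ± 0.37 (adjusted p = 0.000274), and Slc6a15 fell by 2.51 ± 0.79 (adjusted p = 0.0314), a call lost without 2-cell replicate 1 or 2 or 4-cell replicate 1 or 3 (adjusted p from 0.0637 to 0.12). Between 4-cell and 8-cell only Slc7a7 passed, with a rise of 2.14 ± 0.41 (adjusted p = 0.0144; 1 rise and 0 falls, beside 1.23% and 0.759% of all genes). A further 8 members had an unadjusted p under 0.05 in this step, which makes 9 in all.

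From 8-cell to morula, 5 members rose and 6 fell in IVF embryos (7.09% and 10.1% of all genes). Slc38a1, a sodium-coupled glutamine carrier gene, read -0.58, 0.00 and -0.43 in 8-cell IVF embryos, 4.88, 4.12 and 4.21 in morulae and 6.78, 6.63 and 6.23 in blastocysts. It rose by 4.74 ± 0.23 (adjusted p = 3.2e-09) and then by 2.15 ± 0.23 (adjusted p = 8.62e-06), with no overlap between the 3 stages. Slc6a14, an X-linked carrier gene for neutral and cationic amino acids, rose by 2.47 ± 0.50 (adjusted p = 0.00238), though its other probe set did not pass (-0.958, adjusted p = 0.304). Slc43a3 rose by 1.78 ± 0.49 (adjusted p = 0.0184), lost without 8-cell replicate 1 or morula replicate 2 or 3 (adjusted p from 0.0545 to 0.0615). The arginine carrier gene Slc7a1 rose by 1.64 ± 0.40 (adjusted p = 0.00946), from -1.66 in each 8-cell embryo to -0.16, 0.24 and -0.14 in morulae. Slc7a6os rose by 1.00 ± 0.20 (adjusted p = 0.00233), and its other probe set did not pass (-0.545, adjusted p = 0.149). Slc1a5 fell by 2.52 ± 0.48 (adjusted p = 0.00166), Slc3a2 fell by 1.60 ± 0.34 (adjusted p = 0.00376), Slc7a7 fell by 1.73 ± 0.41 (adjusted p = 0.00695) and Slc6a6 fell by 2.72 ± 0.70 (adjusted p = 0.0127); the last was lost without 8-cell replicate 1 or morula replicate 1 or 3 (adjusted p from 0.0502 to 0.0607).

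From morula to blastocyst, 9 members rose and 3 fell in IVF embryos (12.6% and 10.1% of all genes). Slc6a13, a GABA and taurine carrier gene, read 0.96, -0.01 and -0.02 in morulae and 3.13, 4.59 and 3.88 in blastocysts (3.56 ± 0.28, adjusted p = 2.34e-07). Slc38a6 rose by 3.98 ± 0.91 (adjusted p = 0.00546) and Slc7a7 by 2.28 ± 0.41 (adjusted p = 0.000857). Slc6a8 rose by 2.31 ± 0.65 (adjusted p = 0.0183), a call lost without morula replicate 3 (2.20, adjusted p = 0.0556) or blastocyst replicate 1 (2.19, adjusted p = 0.0521). Slc7a1 rose again, by 1.41 ± 0.40 (adjusted p = 0.0199), to 1.64, 0.87 and 1.67. Slc7a5 fell to -2.32, -3.40 and -3.64 (-2.97 ± 0.29, adjusted p = 3.03e-06), below every other IVF embryo but 1-cell replicate 3, at -2.35. Slc6a15 fell by 2.70 ± 0.79 (adjusted p = 0.0234), lost without morula replicate 3 or blastocyst replicate 1 or 2 (adjusted p from 0.067 to 0.112). Slc6a18, a carrier gene that varied little, moved by -0.14 ± 0.04 (adjusted p = 0.0127), lost without morula replicate 1 or blastocyst replicate 3 (adjusted p of 0.0588 and 0.0616). Slc7a3, an X-linked arginine carrier gene, stayed between -0.03 and 0.37 in all oocytes and IVF embryos.

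The clones went through much of the same sequence. From 1-cell to 2-cell, 9 members rose and 13 fell (16.7% and 24.6% of all genes); 8 rose and 6 fell from 2-cell to 4-cell (15.1% and 14.7%), 3 rose and 0 fell from 4-cell to 8-cell (2.33% and 4.17%), 5 rose and 3 fell from 8-cell to morula (9.81% and 7.61%), and 10 rose and 9 fell from morula to blastocyst (16.9% and 17.6%). That last step had 12 rises and 3 falls once each array was centred on its median, with 4637 genes of all kinds called instead of 6279. Without the lowest 30% of genes by SD it had 10 rises and 4 falls, with 4185 genes called. Of its 19 calls in the main analysis, 12 were 2-fold or larger. The largest changes from 1-cell to 2-cell were those of Slc7a6 (6.21 ± 0.24), Slc1a1 (2.99 ± 0.73) and Slc1a5 (2.84 ± 0.33) upward, and of Slc7a11, Slc7a1 (-4.79 ± 0.47) and Slc7a2 (-4.51 ± 0.43) downward. Slc6a8 rose by 7.05 ± 0.48 from 2-cell to 4-cell, Slc7a6os by 3.28 ± 0.49 and Slc1a1 by 3.19 ± 0.73, while Slc6a15 (-4.24 ± 0.49), Slc7a2 (-3.29 ± 0.43) and Slc1a4 (-2.08 ± 0.71) fell. The Slc1a4 call was lost without 2-cell clone 2 or 3 or 4-cell clone 2 or 3 (adjusted p from 0.0505 to 0.0816).

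In the 4-cell to 8-cell step of clones, Slc7a2 (1.77 ± 0.43), Slc7a7 (1.69 ± 0.44) and Slc43a3 (1.42 ± 0.34) rose, and Slc7a7 was lost without 4-cell clone 1 or 8-cell clone 1 or 3 (adjusted p from 0.0576 to 0.0591). The count of 3 was 6 without 4-cell clone 5. Slc38a1 was already uneven in 4-cell clones, at -0.14, 0.34, -0.13, 2.16 and 4.82, against 0.19, -0.48 and -0.55 in 4-cell IVF embryos. In the step to the morula it rose by 3.57 ± 0.64 (adjusted p = 0.000252), Slc38a2 by 2.53 ± 0.65 (adjusted p = 0.00756) and Slc38a9 by 2.41 ± 0.49 (adjusted p = 0.000893), and Slc6a6 (-3.56 ± 0.52), Slc7a4 (-1.28 ± 0.29) and Slc6a12, a betaine carrier gene (-0.31 ± 0.09), fell. The small fall of Slc6a12 was lost without 8-cell clone 3 or 4 (adjusted p of 0.052 and 0.0576). Into the blastocyst, Slc38a2 (2.63 ± 0.65), Slc7a6os (2.44 ± 0.49) and Slc6a8 (1.94 ± 0.48) rose, and Slc7a5 (-2.44 ± 0.31), Slc7a2 (-1.88 ± 0.43) and Slc43a3 (-1.47 ± 0.34) fell. Slc7a6os again moved the other way on its other probe set (-0.914, adjusted p = 0.0291).

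Members that varied little made up the rest. The 24 with an SD under 0.3 were 3 glutamate carrier genes of the Slc1 family (Slc1a2, Slc1a6 and Slc1a7), Slc36a2, Slc38a5, Slc43a1, 5 genes of the GABA and monoamine group (Slc6a2, Slc6a3, Slc6a11, Slc6a12 and Slc6a16), 4 Slc6 amino acid carriers (Slc6a5, Slc6a17, Slc6a18 and Slc6a19), 4 light chains (Slc7a10, Slc7a12, Slc7a13 and Slc7a15), Slc7a3, Slc7a14, Slc6a21 and the opposite strand genes Slc36a1os and Slc6a19os. Most belong to carriers best known from neurons, kidney or gut. None of them was called between clones and IVF embryos at a stage, and the changes called over time were at most 0.306 in size, that of Slc6a12 in clones. They were chosen by a small SD over these same arrays, which limits such changes, so this adds no separate result. Another 10 members lay in between: Slc1a3, Slc3a1, Slc6a4, Slc7a4, Slc7a8, Slc7a9, Slc36a3, Slc36a4, Slc38a3 and Slc38a7. Of these, Slc7a4 rose by 1.13 ± 0.22 from 1-cell to 2-cell in IVF embryos (adjusted p = 0.000565) and then fell by 1.10 ± 0.22 (adjusted p = 0.00157). Slc3a1, the other heavy chain gene, was called in no comparison.

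**Figure D3:**
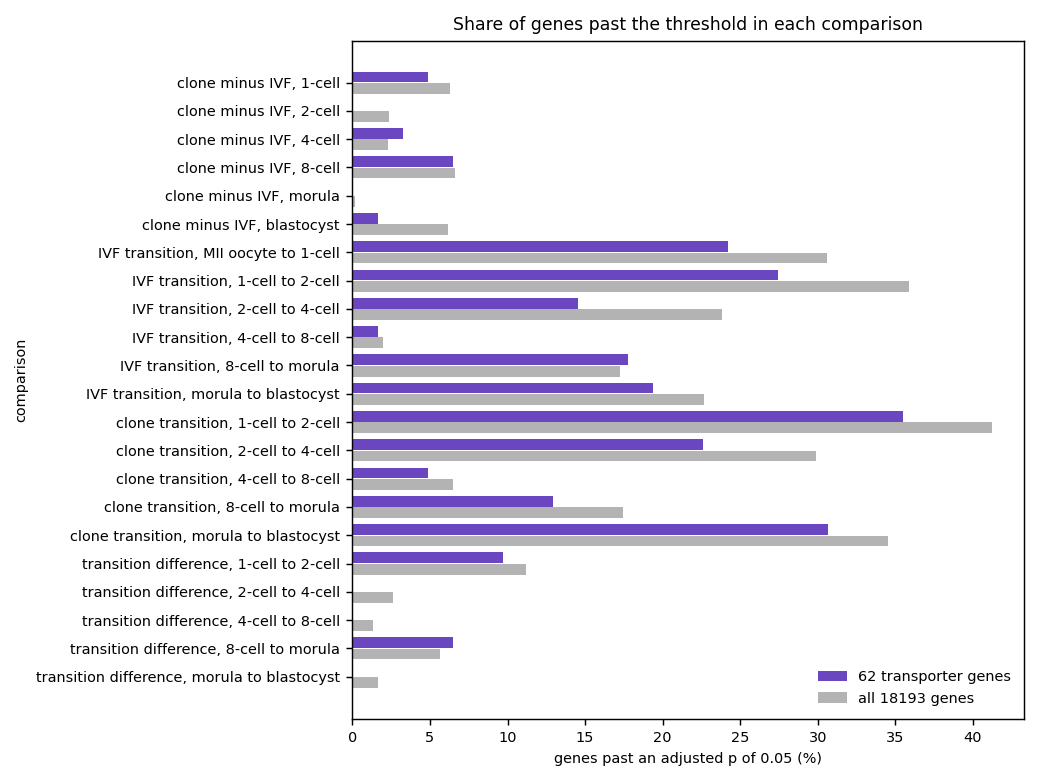
Share of the 62 transporter genes and of all 18193 genes past an adjusted p of 0.05 in each comparison, in percent, both directions together. The share was largest for both in the step from the 1-cell to the 2-cell clone, with 22 transporter genes and 7505 genes of all kinds, and no transporter gene passed between clones and IVF embryos at the 2-cell or the morula stage.

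At the same stage, clones and IVF embryos differed in few members. The median difference of the 62 members lay between -0.008 and 0.035 at the 6 stages, and that of all genes between -0.010 and 0.035. At the 1-cell stage 3 members were higher in clones and 0 lower (4.84% and 0% of the set, against 3.52% and 2.79% of all genes). Slc6a20a read 5.94, 6.33, 5.31, 5.23 and 5.02 in the 5 clones and 0.52, 1.36 and 0.10 in the 3 IVF embryos, a difference of 4.91 ± 0.41 (adjusted p = 0.003). The oocytes, at 7.67 to 7.88, lay above both. Slc7a5 was at 0.29, 0.23, 0.17, 0.09 and 0.21 in clones and at -1.89, -1.96 and -2.35 in IVF embryos (2.27 ± 0.11, adjusted p = 0.00137), and here the oocytes, at -0.82, -1.38 and -0.73, lay in between. Its partner Slc3a2 read 0.16, 0.70, -0.03, 0.00 and -0.19 in clones and -1.72, -2.40 and -1.59 in IVF embryos (2.03 ± 0.26, adjusted p = 0.00989), below the 1.62 to 1.93 of the oocytes. The groups did not overlap for any of the 3 genes, which had been picked for passing the threshold. The share of all genes without overlap was not counted.

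Over clones 1 to 3 alone, whose hybridisation controls lay below those of the IVF embryos, the differences were 5.20 for Slc6a20a, 2.30 for Slc7a5 and 2.18 for Slc3a2. Over clones 4 and 5, whose controls lay near them, they were 4.47, 2.22 and 1.81, and the last no longer passed. That split was made after the data were seen. The count of 3 members rose to 5 without IVF replicate 1. With the control level as a covariate the differences were 4.41 (adjusted p = 0.0248), 2.19 (adjusted p = 0.0104) and 1.79 (adjusted p = 0.0755). Slc36a1 followed the split, at 2.57, 3.02 and 2.42 in clones 1 to 3 and 0.16 and 0.00 in clones 4 and 5, as did the 3′ minus 5′ difference of the Actb control probe sets (-0.02 to 0.41 against -2.45 and -1.69, and -1.78 to -0.21 in IVF embryos), and Slc36a1 did not pass (1.64 ± 0.82, adjusted p = 0.386).

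Of the 11 varying members highest in the oocyte or the 1-cell IVF embryo, Slc6a20a and Slc3a2 were thus called at the 1-cell stage. Among the others, Slc7a11 (-0.21 ± 0.26, adjusted p = 0.823), Slc7a2 (0.03 ± 0.16, adjusted p = 0.999), Slc7a1 (0.53 ± 0.24, adjusted p = 0.329) and Slc6a9 (-0.32 ± 0.10, adjusted p = 0.127) did not pass. Other probe sets of Slc6a6 (1.69 ± 0.23, adjusted p = 0.0117), Slc7a1 (1.50 ± 0.23, adjusted p = 0.0156) and Slc7a2 (2.19 ± 0.40, adjusted p = 0.0266) were higher in clones, while the probe sets followed for these genes did not pass. On those 3 probe sets the oocyte means were 2.04, 3.93 and 4.10, those of clones 0.53, 3.29 and 2.09 and those of IVF embryos -1.16, 1.80 and -0.11. Of 8 oocyte marker genes, 3 (Zp1, Oosp1 and Mos) were higher in 1-cell clones and 0 lower; their summed level, as a mean over the 8, was 5.59 to 6.04 in clones, 5.04 to 5.38 in IVF embryos and 6.28 to 6.48 in oocytes. Of 12 cumulus cell markers measured 1 was higher, Greb1 (4.26 ± 0.57); the mean of that list was -0.11 to 0.25 in clones, -0.44 to -0.43 in IVF embryos and 0.20 to 0.54 in oocytes. None of 15 Sertoli cell markers passed (means of -0.48 to -0.25 in clones and -0.63 to -0.54 in IVF embryos). The part of these markers in the transporter results was not tested.

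**Figure D4:**
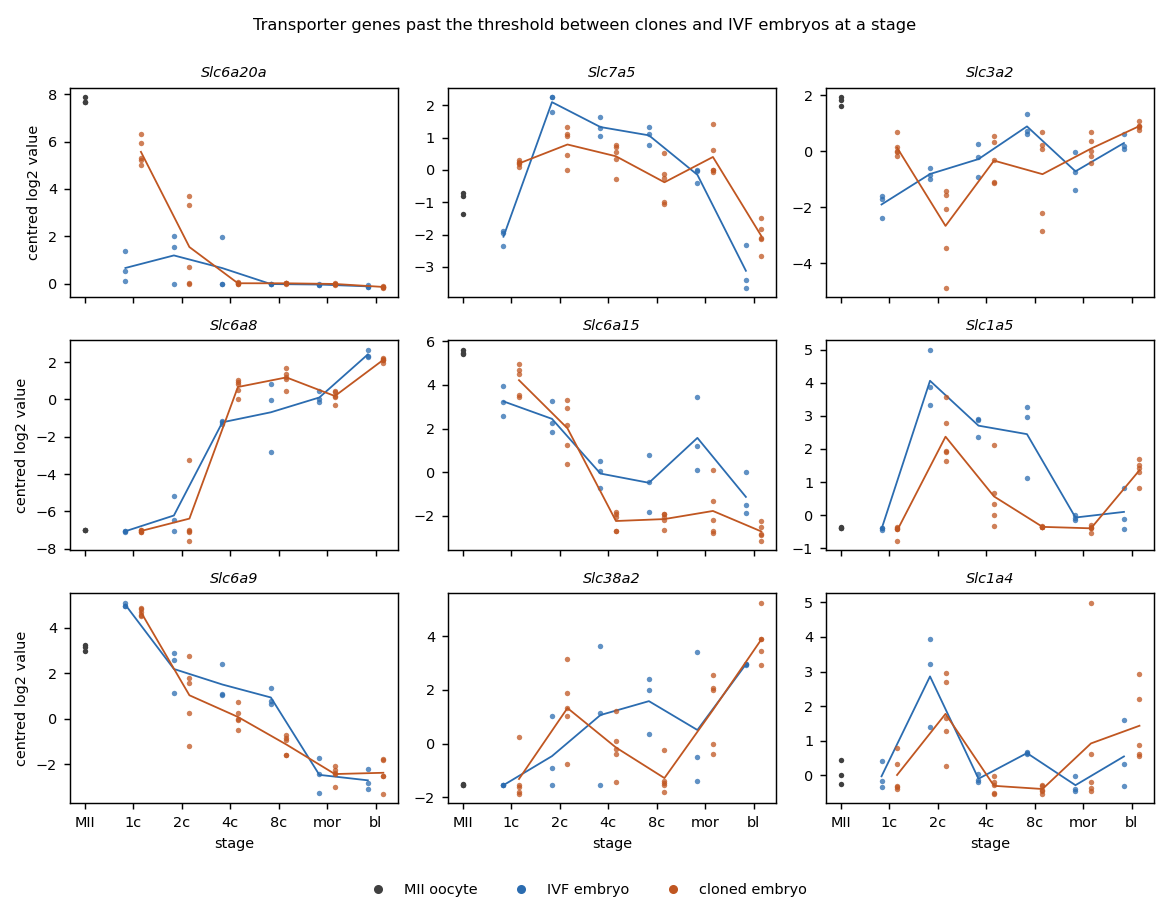
Values by embryo (points) and group means (lines) on the centred log2 scale for the 9 transporter genes called between clones and IVF embryos at a stage, over oocytes and the 6 stages (MII, oocyte; 1c to 8c, cell number; mor, morula; bl, blastocyst). At 1c the 5 clones lie at 5.02 or above and the IVF embryos at 1.36 or below for Slc6a20a, and at 8c the 5 clones lie at -0.34 or below and the IVF embryos at 1.11 or above for Slc1a5.

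At the 2-cell stage 0 members passed in limma and 5 had an unadjusted p under 0.05, while 2.37% of all genes passed. Slc7a5 and Slc3a2, higher in clones a stage before, had values of clones below all IVF embryos: 0.45, 1.04, 1.33, 0.00 and 1.10 against 2.24, 1.79 and 2.25 for Slc7a5 (-1.31 ± 0.33, adjusted p = 0.11), and -4.87, -2.05, -1.42, -1.56 and -3.44 against -0.84, -0.61 and -1.0 for Slc3a2 (-1.85 ± 0.84, adjusted p = 0.388). Slc1a1 was at -1.12, -5.94, -2.02, -1.31 and -4.69 in clones and at -0.54, 0.25 and 1.29 in IVF embryos (-3.35 ± 1.29, adjusted p = 0.287). The spread among clones was wide for each of these, and none of the differences passed.

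At the 4-cell stage 1 member was higher in clones (0.462% of all genes) and 1 lower (1.80%). Slc6a8 read 0.03, 0.51, 0.92, 1.06 and 0.82 in clones and -1.13, -1.21 and -1.33 in IVF embryos (1.89 ± 0.24, adjusted p = 0.0136). Its other probe set had the opposite sign (-2.08, adjusted p = 0.0893), the mean of both gave -0.096 (adjusted p = 0.893), and without IVF replicate 2 the adjusted p was 0.053, so that no direction can be given for the gene. Slc6a15 was at -1.93, -2.06, -2.70, -2.68 and -1.80 in clones and at 0.05, 0.51 and -0.74 in IVF embryos (-2.17 ± 0.35, adjusted p = 0.0312). It no longer passed when IVF replicate 1 or 2 or clone 1, 2, 3 or 4 was left out (-2.25 to -1.89, adjusted p from 0.0593 to 0.102). The count of 2 was 0 without IVF replicate 2 and 3 without IVF replicate 3. With the hybridisation controls as a covariate neither gene passed (Slc6a8 0.395, adjusted p = 0.846; Slc6a15 -2.22, adjusted p = 0.674). The controls did not overlap between the groups at this stage, so this fit could hardly separate control level from group. With the covariate 0 genes of all kinds passed, against 412 without it.

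At the 8-cell stage 4 members were lower in clones and 0 higher, 6.45% and 0% of the set against 4.47% and 2.15% of all genes. The neutral amino acid carrier gene Slc1a5 read -0.36, -0.35, -0.37, -0.36 and -0.34 in clones and 2.96, 3.27 and 1.11 in IVF embryos (-2.80 ± 0.47, adjusted p = 0.0241). The clones were thus near the value of the oocytes (-0.39 to -0.37), while the IVF embryos lay above it. At the 2-cell stage Slc1a5 had read 3.33 to 4.99 in IVF embryos and 1.64 to 3.56 in clones. Its relative Slc1a4 was at -0.52, -0.41, -0.45, -0.30 and -0.27 in clones and at 0.67, 0.66 and 0.61 in IVF embryos (-1.04 ± 0.06, adjusted p = 0.00108). The glycine carrier gene Slc6a9 read -1.60, -0.71, -0.86, -0.92 and -1.59 in clones and 1.34, 0.66 and 0.80 in IVF embryos (-2.07 ± 0.28, adjusted p = 0.0135). Slc38a2, a sodium-coupled carrier gene that amino acid shortage is known to induce, read -1.53, -0.23, -1.38, -1.82 and -1.47 in clones and 0.34, 2.41 and 1.98 in IVF embryos (-2.86 ± 0.56, adjusted p = 0.0369). The groups did not overlap for any of these 4 genes, all picked for passing the threshold. How many of all genes did not overlap was not counted.

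The 8-cell calls of Slc1a5 and Slc38a2 rested on few embryos. Those of Slc1a4 and Slc6a9 held whichever embryo was left out (adjusted p at most 0.00514 and 0.0441). Slc1a5 was lost without IVF replicate 1 or 2 or clone 3 (adjusted p from 0.0549 to 0.0844), and Slc38a2 without IVF replicate 2 or 3 or clone 1, 3, 4 or 5 (adjusted p from 0.0633 to 0.112). The count of 4 fell to 2 without IVF replicate 2 or clone 3. Without clone 4, the embryo low in Eif2s3y, it was 5, and Slc38a2 was the member lost (-2.73, adjusted p = 0.0652). With the hybridisation controls as a covariate only Slc1a4 passed (-1.22, adjusted p = 0.0118), while the others kept their sign (Slc1a5 -2.59, adjusted p = 0.399; Slc6a9 -2.15, adjusted p = 0.285; Slc38a2 -2.65, adjusted p = 0.462). The controls did not overlap between the 8-cell groups, so this fit could hardly separate control level from group. Of all genes, 17 passed with the covariate and 1204 without it. In 1 fit over all 51 arrays it was Slc1a4 that did not pass (adjusted p = 0.347), while Slc1a5 (adjusted p = 2.47e-06), Slc6a9 (adjusted p = 0.00239) and Slc38a2 (adjusted p = 0.0195) did. The other probe sets of Slc1a5, Slc1a4 and Slc38a2 differed by between -0.063 and 0.042, and that of Slc6a9 by 0.451 (adjusted p = 0.449). Of genes whose followed probe set did not pass, another one did for Slc38a10 (-1.81 ± 0.23, adjusted p = 0.0109) and for Slc7a2 (0.28 ± 0.06, adjusted p = 0.0426). Some marker lists moved at the same stage, where 4.47% of all genes were lower in clones. Of 8 oocyte markers 3 were lower (Zp3, Gdf9 and Bmp15), with list means of -1.33 to -0.89 against 0.07 to 0.54. Of 7 inner cell mass and epiblast markers 4 were lower (Sox2, Pou5f1, Esrrb and Tdgf1), with means of -0.77 to 0.42 against 0.68 to 1.15. The mean of the cumulus cell list was instead higher in clones (0.18 to 0.31 against 0.13 to 0.17). The means of the Sertoli cell, trophectoderm and primitive endoderm lists overlapped. The part of all these markers in the transporter results was not tested.

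Slc7a5 (-1.45 ± 0.38, adjusted p = 0.0725) and Slc6a15 (-1.66 ± 0.55, adjusted p = 0.114) did not overlap between 8-cell groups either, and did not pass. At the morula stage 0 members passed in limma, 5 had an unadjusted p under 0.05, and 0.165% of all genes passed. Slc6a14, at -0.07, 1.92, 0.00, -0.09 and -0.14 in cloned and 2.75, 2.55 and 3.35 in IVF morulae, did not overlap (-2.56 ± 0.53, adjusted p = 0.137). Slc38a6 was at 2.26, 2.04, 2.80, 1.43 and 1.39 in cloned and -1.57, -1.64 and 0.00 in IVF morulae (3.05 ± 0.50, adjusted p = 0.0798).

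In blastocysts 1 member was higher in clones and 0 lower (2.84% and 3.34% of all genes). Slc3a2 read 0.86, 0.90, 1.07, 0.76 and 0.89 in clones and 0.60, 0.08 and 0.19 in IVF embryos (0.60 ± 0.13, adjusted p = 0.0414). The call was lost without IVF replicate 2 or 3 or without any 1 of the 5 clones (0.498 to 0.638, adjusted p from 0.0675 to 0.128), and it was the smallest of the called differences. It was also lost in 1 fit over all 51 arrays (adjusted p = 1) and with the hybridisation controls as a covariate (0.694, adjusted p = 0.0922). With that covariate the 1 member called was instead lower in clones, Slc6a15 (-2.27 ± 0.32, adjusted p = 0.0366; -1.58, adjusted p = 0.0957 without it). The light chain gene Slc7a8 was at 2.31, 2.87, 1.75, 1.18 and 0.09 in cloned and -0.06, 0.07 and -0.02 in IVF blastocysts (1.64 ± 0.60, adjusted p = 0.189), after values of at most 0.68 in every earlier cloned embryo; between cloned morula and blastocyst it rose by 1.62 ± 0.29 (adjusted p = 9.01e-05). Slc1a5 was at 1.71, 1.41, 1.52, 1.31 and 0.83 in cloned and at -0.11, -0.41 and 0.81 in IVF blastocysts (1.26 ± 0.31, adjusted p = 0.07). Neither difference passed. Probe sets other than those followed passed for Slc7a6 (0.75 ± 0.12, adjusted p = 0.0191) and Slc38a10 (-0.75 ± 0.14, adjusted p = 0.0335).

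Marker lists also lay apart between blastocysts. The mean of 15 Sertoli cell markers was 0.32 to 0.83 in clones and -0.24 to 0.11 in IVF embryos, and 1 of them passed, Aard (2.38 ± 0.43, adjusted p = 0.0276). The mean of 7 inner cell mass and epiblast markers was 0.82 to 1.98 in clones and 2.12 to 2.22 in IVF embryos, and none of them passed in limma (3 had an unadjusted p under 0.05). The 9 trophectoderm markers overlapped (5.22 to 5.82 and 5.51 to 5.65). Of 7 primitive endoderm markers, whose means also overlapped (1.75 to 4.28 and 2.43 to 2.56), Gata6 was higher in clones (0.73 ± 0.14, adjusted p = 0.0303). The part of these markers in the blastocyst results was not tested.

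Whether a step differed between clones and IVF embryos was tested as the difference of the 2 transitions over all 51 arrays; these tests share arrays with the comparisons at each stage and are not independent of them. From 1-cell to 2-cell, 6 members moved less upward or more downward in clones and 0 the other way (7.24% and 3.96% of all genes). Slc6a20a fell by 4.02 ± 0.48 in clones while its IVF change was 0.53 (difference -4.55 ± 0.74, adjusted p = 2.49e-05). Slc3a2 fell by 2.79 ± 0.60 in clones and rose by 1.09 ± 0.34 in IVF embryos (difference -3.88 ± 0.83, adjusted p = 0.00101), and Slc1a1 rose in both but by less in clones (difference -4.22 ± 1.13, adjusted p = 0.00899). The others were Slc7a5 (-3.58 ± 0.46), Slc43a3 (-2.97 ± 0.58) and Slc36a1 (-2.90 ± 0.76). Over 1-cell clones 4 and 5 alone the differences of Slc36a1 (-1.34 ± 0.69, adjusted p = 0.299) and Slc1a1 (-3.48 ± 1.21, adjusted p = 0.0654) no longer passed. Slc36a1 was the gene that followed the split of the 1-cell clones, and over clones 1 to 3 its difference was -3.93 ± 0.65 (adjusted p = 3.4e-05). Those of Slc6a20a (-4.11), Slc3a2 (-3.66), Slc7a5 (-3.53) and Slc43a3 (-2.60) still passed over clones 4 and 5.

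From 8-cell to morula, 2 members moved more upward in clones and 2 more downward (4.28% and 1.38% of all genes); the count of 4 was 7 without 8-cell clone 1 or 2. Slc1a5 (2.47 ± 0.57, adjusted p = 0.00545) and Slc7a5 (1.99 ± 0.46, adjusted p = 0.00581) fell in IVF embryos at a step where their means in clones went from -0.36 to -0.40 and from -0.38 to 0.40. Slc6a14 rose in IVF embryos and had means of 1.00 and 0.33 in 8-cell and morula clones (difference -3.14 ± 0.74, adjusted p = 0.00647), although its other probe set gave 1.31 (adjusted p = 0.0985). Slc7a6os (-2.29 ± 0.65, adjusted p = 0.0283) had the opposite sign on its other probe set (1.71, adjusted p = 0.018), and was lost without 8-cell IVF replicate 2 or 3, IVF morula 1 or 3 or 8-cell clone 5 (adjusted p from 0.0507 to 0.0696). For the steps from 2-cell to 4-cell, 4-cell to 8-cell and morula to blastocyst, 0 members passed in limma; 8, 3 and 6 had an unadjusted p under 0.05, and 2.64%, 1.31% and 1.62% of all genes passed.

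Genes that respond to or sense amino acids were read beside the carriers. Of 29 measured genes of the amino acid response and of amino acid synthesis, 3 were higher and 0 lower in 1-cell clones: Ddit4 (1.73 ± 0.24), Ppp1r15a (1.86 ± 0.30), which codes for a subunit of the phosphatase that reverses the eIF2α block, and Cebpg (0.51 ± 0.11). Of all genes 3.52% were higher and 2.79% lower at that stage. At 2-cell 0 were higher and 2 lower (0.511% and 1.86% of all genes), at 4-cell 1 and 0 (0.462% and 1.80%), at 8-cell 0 and 5 (2.15% and 4.47%), at morula 0 and 0 (0.077% and 0.0879%), and in blastocysts 1 and 2 (2.84% and 3.34%). The 5 lower genes at 8-cell were Gpt2 (-3.77 ± 0.37), Ppp1r15a (-2.84 ± 0.63), Shmt1 (-2.28 ± 0.30), the mitochondrial folate enzyme gene Mthfd2 (-2.14 ± 0.31) and Cth (-1.53 ± 0.22), a gene of cysteine synthesis. The median difference of the list at 8-cell was -0.253, against 0.035 for all genes.

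Of 35 measured genes of amino acid sensing by mTORC1, 4 were higher and 2 lower in 1-cell clones (3.52% and 2.79% of all genes), among them Mtor (1.29 ± 0.18) and Rragc (1.18 ± 0.16), a GTPase that recruits mTORC1 to the lysosome, and Tsc1, a brake on the pathway (-1.59 ± 0.23). At 2-cell 0 were higher and 1 lower (0.511% and 1.86%), Depdc5 (-3.64 ± 0.10), a gene of the complex that restrains mTORC1 when amino acids are scarce. The counts were 0 and 0 at 4-cell (0.462% and 1.80% of all genes), 2 and 2 at 8-cell (2.15% and 4.47%), 0 and 1 at morula (0.077% and 0.0879%) and 1 and 5 in blastocysts (2.84% and 3.34%). The remaining called genes of this list are not named here, and activity of the pathway was not tested. Of 21 measured carriers of amino acids outside these families, Ctns, which codes for the lysosomal cystine exporter, was higher in 1-cell clones (1.91 ± 0.26). Slc15a4 and Slc25a38 were lower at 2-cell and Slc25a22, a mitochondrial glutamate carrier gene, at 4-cell (-1.60 ± 0.27). Of 7 genes of osmotic balance, Aqp9 was higher in 1-cell clones (1.55 ± 0.22) and the inositol carrier gene Slc5a3 in 8-cell clones (1.96 ± 0.30).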

How the data were processed

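Single mouse oocytes and embryos were hybridised to Affymetrix arrays after RNeasy Micro extraction and 2-cycle amplification, per the labels' protocols. The deposited log2 values were made with RMA, per the submitters' processing notes (version not given in the sources used here). In 94.3% of probe sets exactly 1 array stood at 0, so the authors' log2 values are centred by probe set; the log base follows from a largest span of 13.8, above the 11.1 that 16-bit intensities allow in natural logs. Arrays give no depth, and their number limits the precision.

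Of 45101 probe sets, 64 controls, 932 with several gene symbols and 9160 with none were left out; the 34945 with 1 symbol were reduced to 18193 genes by the largest SD. All 62 members matched RefSeq positions (GRCm38.p6). Genes were tested with limma 3.58.1 in R 4.3.3 (lmFit, eBayes), 2-sided, with Benjamini-Hochberg adjustment. Stages were fitted on their 8 arrays, IVF transitions on 21, clone transitions on 30 and differences of transitions on all 51. The test was checked on simulated data. Replicate numbers were not used as pairs, since residuals of embryos with the same number correlated by -0.204 to 0.102 over 18 pairs. Alternatives were other normalizations, other probe sets, a filter on the lowest 30% by SD, 1 array left out, 1 fit over all arrays, control level as covariate and a replicate block.

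Named at a stage were members past the threshold (up to 8 each way without overlap and up to 4 with it), in IVF transitions the 5 largest each way, in clone transitions and differences of transitions the 3 largest each way, and 18 members followed throughout. Other genes were named after their values were seen. Members and lists were chosen with earlier results of these data known.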

Additional observations from a re-analysis of the deposited data

Results flagged for a closer look

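Of 64 groups of 5 clones examined, over the members the text follows, 10 held 1 embryo far from the other 4. How many groups chance alone would mark was not estimated, and in some the gap was small in size. Clone 3 stood apart at the 1-cell stage for Slc1a1, at -3.44 against -7.12 to -6.36 in the others, and for Slc1a5, at -0.77 against -0.41 to -0.37. Among 2-cell clones, replicate 5 read -3.25 for Slc6a8 (others -7.56 to -6.99) and replicate 1 read 0.35 for Slc7a11 (others -0.03 to 0). Replicate 5 of the 4-cell clones read -1.05 for Slc7a2 (others -2.10 to -1.96). Replicate 2 of the 8-cell clones read -0.23 for Slc38a2 (others -1.82 to -1.38). In morulae Slc6a14 was at 1.92 in clone 2 (others -0.14 to 0), Slc6a12 at 0.18 in clone 4 (others -0.01 to 0.04) and Slc7a4 at 0.26 in clone 5 (others -0.04 to 0.02). Clone 1 of the blastocysts read -1.87 for Slc7a2 (others -2.14 to -2.12).

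The change between stages differed between clones and IVF embryos, by limma's test of the difference itself, for 6 members from 1-cell to 2-cell: Slc6a20a (-4.55), Slc1a1 (-4.22), Slc3a2 (-3.88), Slc7a5 (-3.58), Slc43a3 (-2.97) and Slc36a1 (-2.90). Over 1-cell clones 4 and 5 alone that of Slc36a1 was -1.34 (adjusted p = 0.299) and that of Slc1a1 -3.48 (adjusted p = 0.0654). From 8-cell to morula it differed for Slc1a5 (2.47), Slc7a5 (1.99), Slc6a14 (-3.14) and Slc7a6os (-2.29). The cause of these differences was not tested.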

How the results depend on the processing

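Counts of members called moved most with the samples in the fit and with quantile normalization; the cause was not tested. In 1 fit over all 51 arrays the counts between clones and IVF embryos were 6 at 1-cell (3 in the main analysis), 5 at 2-cell (0), 4 at 4-cell (2), 9 at 8-cell (4) and 3 at morula (0), and 7 for clones from 4-cell to 8-cell (3). Genes of all kinds called in that fit also rose, to 1955 at 1-cell (1148 in the main analysis), 1915 at 2-cell (432) and 1549 at 4-cell (412). They were 3787 at 8-cell (1204), 608 at morula (30) and 1556 for clones from 4-cell to 8-cell (1182). With quantile normalization the counts of members were 1 at 4-cell, 8 from oocyte to 1-cell (15), 2 for IVF embryos and 7 for clones from 4-cell to 8-cell (1 and 3), 9 for clones from morula to blastocyst (19), and 3, 8 and 2 for the differences of transitions at 1-cell to 2-cell (6), 8-cell to morula (4) and morula to blastocyst (0). Genes of all kinds were then 343 at 4-cell (412) and 2333 from oocyte to 1-cell (5565). They were 883 for IVF embryos and 2036 for clones from 4-cell to 8-cell (361 and 1182), and 4138 for clones from morula to blastocyst (6279). For those 3 differences of transitions they were 520 (2038), 1767 (1030) and 367 (295). Without the lowest 30% of genes by SD the counts of members were 1 at morula, 3 at blastocyst (1), 2 for IVF embryos from 4-cell to 8-cell, and 7 and 1 for the last 2 differences of transitions. Genes of all kinds were then 120 at morula (30), 1441 at blastocyst (1125), 430 for that IVF step (361), and 1121 and 284 for those 2 differences (1030 and 295). The mean of a gene's probe sets gave 1 at 4-cell and 1 for the difference from 2-cell to 4-cell (0), and centring arrays on their medians 1 for that from morula to blastocyst. Genes of all kinds were 360 (412), 476 (480) and 298 (295) in these, in the same order. With hybridisation controls as a covariate the counts were 0 at 4-cell and 1 at 8-cell; at blastocyst 0 members were higher and 1 lower, against 1 and 0. Genes of all kinds called with it were 0 at 4-cell, 17 at 8-cell and 340 at blastocyst (412, 1204 and 1125 in the main analysis). Over 1-cell clones 1 to 3 alone, chosen after seeing the data, 5 members passed at 1-cell, with 1021 genes of all kinds (1148).

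Replicate numbers showed no pairing; with the replicate block, over replicates 1 to 3, 1 member passed at 1-cell and 0 at 2-cell, 4-cell, 8-cell, morula and blastocyst, with fewer arrays in the fit. Slc6a20a was the member that passed (5.20, adjusted p = 0.0482). Of all genes, 37 passed with the block at 1-cell and 0 at each later stage. With the block the counts for transitions and their differences stayed within 1.5 times the main counts.

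With 1 embryo left out, counts between clones and IVF embryos ranged from 3 to 5 at 1-cell, 0 to 1 at 2-cell, 0 to 3 at 4-cell, 2 to 5 at 8-cell, 0 to 1 at morula and 0 to 2 at blastocyst. In stage order they ranged from 13 to 16, 15 to 19, 6 to 11, 1 to 2, 9 to 12 and 9 to 13 for IVF transitions, from 20 to 23, 10 to 15, 2 to 6, 7 to 9 and 15 to 20 for clone transitions, and from 6 to 7, 0 to 2, 0 to 0, 3 to 7 and 0 to 2 for their differences. Of single members, 57 calls were lost and 687 kept over all embryos left out.

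Signs turned only with another probe set (34 values) or the mean of probe sets (3 values). The means were -0.096 for Slc6a8 at 4-cell, and -1.21 for Slc7a11 and -0.180 for Slc7a1 from oocyte to 1-cell. Other probe sets gave -2.08 for Slc6a8 at 4-cell, and 0.042 for Slc38a2, 0.041 for Slc1a5, 0.451 for Slc6a9 and 0.019 for Slc1a4 at 8-cell. From oocyte to 1-cell they gave -0.010, -0.485 and -4.21 for Slc38a9, -4.26 for Slc7a11, -0.018 and -2.13 for Slc7a1 and 0.571 for Slc6a6. In later IVF steps they gave 0.018 for Slc6a20b, 0.014 for Slc1a4, 0.002 for Slc7a4, -0.019, 0 and -0.028 for Slc7a7, -0.958 for Slc6a14, -0.775 and -0.545 for Slc7a6os, 0.003 for Slc1a5 and -0.045 for Slc38a6. In clone steps they gave -0.636 and -0.914 for Slc7a6os, 0.168 and 0.009 for Slc7a2, -0.001 for Slc7a7, -0.009 for Slc38a2, -0.017 for Slc38a9 and 0.009 for Slc7a4. In differences of transitions they gave -0.014 for Slc1a5, 1.31 for Slc6a14 and 1.71 for Slc7a6os. Arrays carry no depth, and centred values do not show which signals lie near background.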
